A study of Mus musculus with 10 samples.

Results

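The mRNAs of the cytosolic ribosomal proteins were examined in islets from floxed controls (FL) and from βFIT2KO (KO) animals. The members were chosen by gene name: every row of the deposited table whose symbol is Rpl or Rps followed by a number (with a paralogue letter where there is one), plus Rpsa, Rplp0, Rplp1 and Rplp2, without S6 kinases and named pseudogenes. This gave 88 of the 47340 genes in the table, 52 of the large and 36 of the small ribosomal subunit. Annotation calls 83 of them protein coding, 4 processed pseudogenes (Rpl6l, Rps12l1, Rps3a2 and Rps3a3) and 1 a transcribed processed pseudogene (Rps4l). They lie on 19 chromosomes.

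RNASeq was done on islets of 5 FL and 5 KO mice, male, 12 wk old and fed chow, each mouse giving 1 library. In FL mice loxP sites flank part of the FIT2 gene (Fitm2) in both copies, although their genotype label reads wild type, and KO mice carry the same sites plus Cre recombinase driven by the rat insulin promoter, so both groups share the floxed allele and differ in Cre as well as in FIT2. No islets with Cre alone were sequenced among these libraries, so an effect of Cre itself cannot be told apart from that of FIT2 loss. Islets recovered overnight in culture before RNA was taken, polyadenylated RNA was made into strand-specific libraries, and single ends of 75 nt were read.

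Cytosolic ribosomes are built from ribosomal RNA and these proteins, mostly a single copy of each, in a large subunit that joins amino acids and a small subunit that reads the mRNA. Many ribosomal protein mRNAs begin with a run of pyrimidines, the 5′ terminal oligopyrimidine (TOP) motif, through which the kinase complex mTORC1 and the binding protein LARP1 set their translation and stability. In β cells, which make insulin in large amounts, this machinery carries a heavy load of protein synthesis.

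Values are FPKM, by name fragments per kilobase of transcript scaled to mapped fragments, but the library scaling used is not given in the sources. The values of a library summed to between 627084 and 675470 FPKM, and the number of reads behind a value is unknown. Fitm2 itself fell from 23.3 ± 9.86 FPKM in FL to 6.95 ± 2.36 FPKM in KO (n = 5, SD; log2 fold change −1.58, limma adjusted p = 0.00228), with no overlap between the groups. Of the β cell marker genes, Ins1, Ins2 and Iapp are listed at 0 in all 10 libraries, as is Gcg of the α cell markers, so the label islet rests on the other markers. The 10 β cell markers summed to 2273 to 2844 FPKM in FL and 1511 to 2124 FPKM in KO, and 6 of the 7 that could be tested were lower in KO, while 16.5% of all tested genes were. The 8 α cell markers summed to 747 to 980.3 FPKM in FL and 525 to 669 FPKM in KO, and the 5 duct markers to 449 to 527 and 363 to 420.1 FPKM, also without overlap. The sums of the δ cell, γ cell and acinar markers overlapped between the groups, with δ cell means of 5348 FPKM in FL and 4415 FPKM in KO. Acinar markers were uneven between mice, at 4379 to 11636 FPKM in FL and 2881 to 21497 FPKM in KO, highest in KO mouse 5. The 6 endothelial markers summed to 119 to 138 FPKM in FL and 145 to 189 FPKM in KO, the 7 stellate cell markers to 12.2 to 20.8 and 24.7 to 34.2 FPKM, and the 8 leukocyte markers to 122 to 167 and 171 to 195 FPKM. The part of these shifts in the changes below was not tested, and in whole islets fewer cells of a type and less RNA per cell cannot be told apart.

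Ribosomal protein mRNAs were among the most abundant of those listed above 0 in these islets. In FL islets 72 of the 88 members were within the 500 genes with the highest mean FPKM, and the members summed to between 46143 and 48495 FPKM, or 7.18 ± 0.17% (SD, n = 5) of all FPKM in a library. In KO islets they summed to between 45686 and 51675 FPKM, or 7.41 ± 0.48% (SD, n = 5). Ins1, Ins2, Iapp and Gcg are listed at 0 in every library, so all shares given here are of a total without those mRNAs. The share of all islet mRNA is unknown. The FL and KO sums overlapped, and their means, 47357 and 47380 FPKM, differed by far less than the spread between mice. The KO sum was highest in KO mouse 2, at 51675 FPKM, while the other 4 KO mice lay between 45686 and 47179 FPKM. Large-subunit members held 3.84 ± 0.083% of the FPKM of a library in FL and 3.95 ± 0.26% in KO, and small-subunit members 3.34 ± 0.087% and 3.46 ± 0.21% (SD, n = 5). On the deposited scale the log2 ratio of the group means was thus close to 0, and no test of the sum was made.

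Within the total, single members spread widely around a common level. Of the members, 81 averaged at least 1 FPKM in one group or the other, 48 of the large and 33 of the small subunit, and only these were tested. Their levels had a median of 502 in FL and 484 FPKM in KO, and 78 of the 81 exceeded 100 FPKM in FL. A few members stood highest in FL islets. Rps27 (eS27) was at 1939 ± 66.5 FPKM, Rps15a at 1745 ± 276, Rplp1 at 1612 ± 106, Rps29 at 1202 ± 59.6 and Rps14 at 1147 ± 31.9 FPKM (SD, n = 5). FL mice ranged from 1840.2 to 2012 FPKM for Rps27 and from 1515 to 2209 FPKM for Rps15a, so these neighbours in the order overlapped, as did Rps15a with Rplp1 and Rps29 with Rps14, while every Rplp1 value lay above every Rps29 value. At the low end stood Rpl29, at 29.6 ± 4.43 FPKM, Rpl7l1 at 33.8 ± 1.21, Rps4l at 63.2 ± 10.5, Rpl10a at 152 ± 15.3 and Rpl24 at 153 ± 16.4 FPKM (SD, n = 5). Rpl29 and Rpl7l1 overlapped between mice, as did Rpl10a and Rpl24, and Rps4l lay clear of its neighbours on both sides. The span from Rpl29 to Rps27 was 65.6-fold on the FPKM scale. Reads shared with near-identical pseudogene copies make single levels uncertain.

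**Figure D1:**
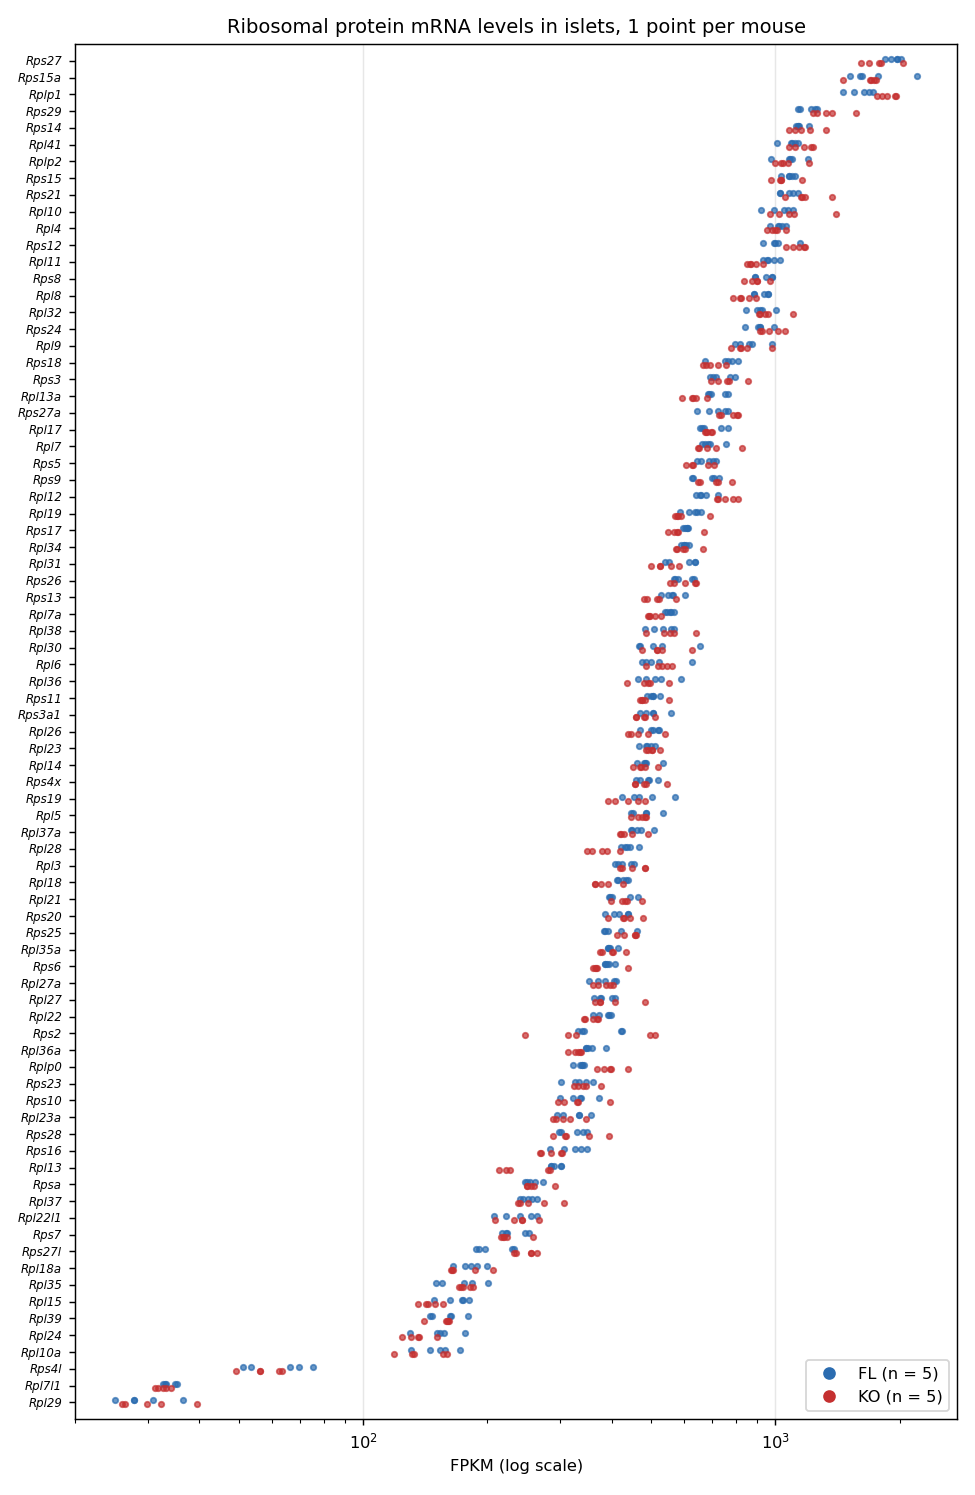
FPKM (log axis) of the 81 tested ribosomal protein mRNAs in every mouse, ordered by the FL mean, FL in blue and KO in red (n = 5 each). All but Rpl29, Rpl7l1 and Rps4l lie above 100 FPKM in the FL mean, and the blue and red points of most genes overlap.

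The other 7 members are listed at a mean under 1 FPKM in both groups and were not tested, with none above 1.28 FPKM in any mouse. These are the testis-type paralogues Rpl10l and Rpl39l, the muscle-type paralogue Rpl3l, and the retrocopies Rpl6l, Rps12l1, Rps3a2 and Rps3a3. Rpl10l and Rps12l1 are listed at 0 in all 10 libraries, as are Ins1, Ins2, Iapp and Gcg, so a listed 0 need not mean low expression. Rpl3l is listed at 0 in all 5 KO libraries and in 4 FL libraries, and the remaining FL mouse had 0.0213 FPKM. Their canonical partners were abundant, with Rpl10 at 1027 ± 72.6 FPKM in FL and 1116 ± 169 in KO, Rpl39 at 159 ± 14.1 and 156 ± 8.93, and Rpl3 at 429 ± 19.98 and 451 ± 30.4 FPKM (SD, n = 5). None of these 3 partners passed the test (adjusted p from limma of 0.431, 0.793 and 0.402).

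KO islets were then compared with FL islets gene by gene, on log2(FPKM + 1) with limma, over all 13065 genes that averaged at least 1 FPKM in either group, calling an adjusted p of at most 0.05. All fold changes below are differences on that scale, KO minus FL. Among the 81 tested members, 6 were lower and 4 were higher in KO, which is 12.3%, while 25.5% of all tested genes were called. In the lower direction the members' share was 7.41% against 16.5% of all tested genes, and in the higher direction 4.94% against 9.05%. Without adjustment, 18 of the 81 members had a p under 0.05, as did at least the 25.5% of all tested genes that were called after adjustment. The FL and KO mice did not overlap in 8 members (9.88%), against 19.1% of all tested genes. The median log2 fold change of the members was −0.02 (46 below and 35 above 0), beside −0.06 over all tested genes, and it turned positive, at 0.02 to 0.05, when the libraries were rescaled by quantiles, the median ratio or the upper quartile, or given the same sum. These 81 genes are a family described by its counts, and no test of the family as a whole was made.

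The changes were small in every member. Log2 fold changes ran from −0.27 (Rpl13) to 0.26 (Rps27l), and none reached 1.5-fold. The 95% interval of the change lay inside 1.5-fold in either direction in all 81 members, against 82.5% of all tested genes, and did so in each of the 26 alternative settings. Most members exceeded 100 FPKM in FL, while tested genes reach down to 1 FPKM, and no share at matched levels was computed. The members varied little, with a median coefficient of variation between mice of 5.75% in FL and 6.73% in KO. On the deposited scale the subunits differed in their counts. Of the 48 large-subunit members, 6 were lower and 3 higher (median −0.03, 8 without overlap, 14 with an unadjusted p under 0.05). Of the 33 small-subunit members, 0 were lower and 1 was higher with limma (median −0.01, 0 without overlap, 4 with an unadjusted p under 0.05), and that 1 is the paralogue Rps27l. The difference between the subunits was not tested, and its direction depended on the library scale. After upper quartile rescaling, the called members were Rpl12, Rplp0 and Rplp1 of the large subunit and Rps12, Rps21, Rps27a, Rps27l and Rps29 of the small. Median ratio rescaling gave these and Rpl28, so in both the small subunit had more calls.

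**Figure D2:**
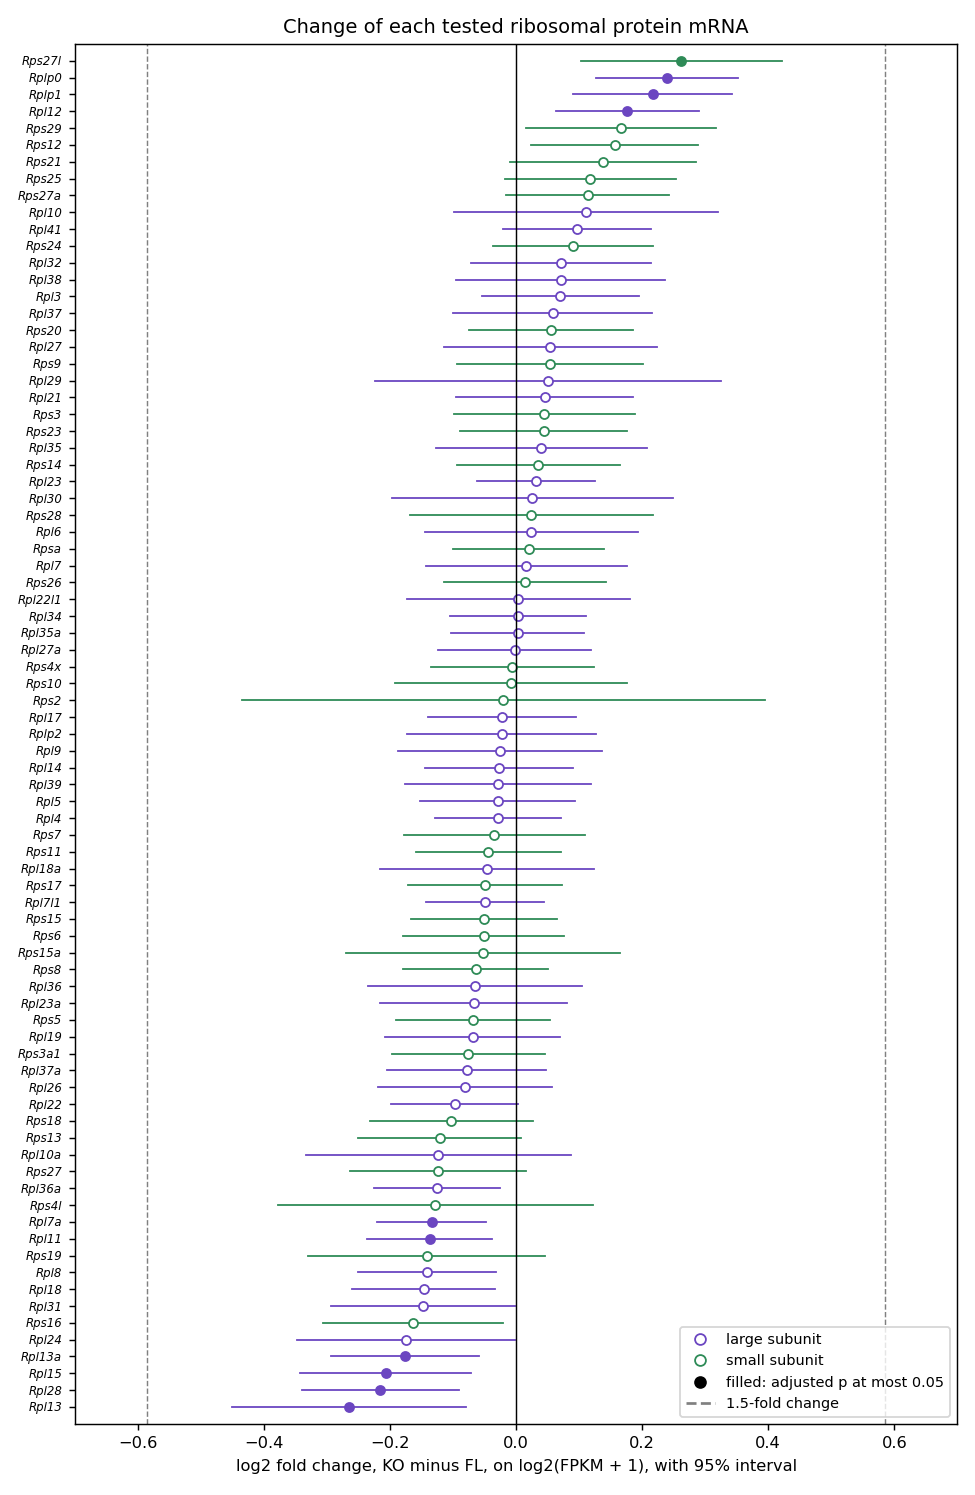
Log2 fold change (KO minus FL, on log2(FPKM + 1)) of each tested member with its 95% interval, large subunit in purple and small subunit in green, with filled points for an adjusted p of at most 0.05 from limma. All intervals lie between the dashed lines at 1.5-fold, and the 10 filled points are 6 large-subunit genes on the left and Rplp0, Rplp1, Rpl12 and Rps27l on the right.

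How many members were called, and in which direction, depended on the scale of the libraries. Rescaling by the median ratio gave 1 lower and 8 higher members, by the upper quartile 0 and 8, by quantiles 2 and 9, and to the same sum 0 and 5, against 6 and 4 on the deposited scale. Calls over all 13065 tested genes moved with the scale too, from 2150 lower and 1183 higher on the deposited scale. They became 1530 and 1614 (median ratio), 1455 and 1675 (upper quartile), 1708 and 1494 (quantiles), and 1530 and 1389 (same sum). To remove any shift shared by the family, the libraries were also rescaled to the same mean of the tested members, a choice made after the values were seen. This gave 6 lower (Rpl13, Rpl13a, Rpl15, Rpl18, Rpl28 and Rpl8) and 7 higher members (Rpl12, Rplp0, Rplp1, Rps12, Rps21, Rps27l and Rps29), while 22.9% of all genes were called on that scale. Rplp0, Rplp1, Rpl12 and Rps27l were called higher on each of these scales. Leaving out single mice moved the counts as well. The 10 calls became 3 without FL mouse 3 or KO mouse 1, 5 without FL mouse 4 or 5 or KO mouse 3 or 4, and 6 without FL mouse 1 or KO mouse 5. Without KO mouse 2 there were 14 calls (10 lower and 4 higher). Without FL mouse 2 there were again 10, but Rpl13 and Rps27l were no longer among them and Rpl24 (lower) and Rps12 (higher) were. Over all tested genes, leaving out 1 mouse gave 1589 (KO mouse 4) to 2367 (KO mouse 2) lower calls, against 2150. Higher calls then numbered 936 (KO mouse 1) to 1130 (KO mouse 3), against 1183. Without FL mouse 3 there were 1655 lower and 979 higher, and without KO mouse 1 there were 1676 and 936.

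Of the 3 stalk genes, Rplp0 and Rplp1 rose and Rplp2 did not pass the test, while 9.05% of all tested genes were called higher. Rpl12, which is not on the list of stalk genes, rose too and is described with them because its protein is a neighbour of the stalk, a placing made after its values were seen. The stalk is a flexible arm of the large subunit that recruits the elongation factors: Rplp0 (uL10) is its base on the ribosomal RNA, Rplp1 and Rplp2 are the acidic P1 and P2 proteins that bind to it as dimers, and Rpl12 (uL11) sits beside its base. To show how their transcripts start, 60 bases before and 20 bases from the start in RefSeq (build GRCm38.p6) are printed 5′ to 3′ for Rplp0, Rpl12 and Rplp2, with capitals for the run of C and T nearest to the start, if it begins with C, holds at least 5 bases and touches the 10 bases on either side.
Rplp0, chr5:115559407-115559486, + strand: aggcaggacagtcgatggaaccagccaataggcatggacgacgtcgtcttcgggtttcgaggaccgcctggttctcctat
Rpl12, chr2:32961652-32961731, + strand: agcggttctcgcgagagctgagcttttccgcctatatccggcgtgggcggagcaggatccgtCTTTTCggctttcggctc
Rplp2, chr7:141447591-141447670, + strand: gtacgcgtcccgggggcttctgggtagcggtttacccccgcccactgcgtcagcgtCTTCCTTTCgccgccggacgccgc
The windows differ in that the one of Rplp0 holds no such run, that of Rpl12 has it 2 bases into the transcript, and that of Rplp2 spans the start. No promoter of Rplp1 was matched.

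Rplp0 (ENSMUSG00000067274.10, chromosome 5, 115559467 to 115563727, + strand, GRCm38) was higher in every KO mouse than in any FL mouse. FL mice were at 339.5, 322, 344, 339.7 and 336 FPKM and KO mice at 398, 439, 368, 385 and 399 FPKM. The groups were well apart, with the FL mice within a narrow band and KO mouse 2 highest. The mean rose from 336 ± 8.30 to 398 ± 26.4 FPKM (SD, n = 5), and its log2 fold change was 0.24 (SE 0.05, limma adjusted p = 0.00655). The call held in all 26 alternative settings, with log2 fold changes from 0.20 to 0.31.

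Rplp1 (ENSMUSG00000007892.7, chromosome 9, 61913284 to 61914542, − strand) also rose without overlap. Single FL mice measured 1639.95, 1723, 1687, 1552 and 1460.2 FPKM and KO mice 1869, 1961, 1767, 1816 and 1947 FPKM. Even the lowest KO mouse lay above the highest FL mouse. The log2 fold change was 0.22 (SE 0.06, limma adjusted p = 0.0185), and it was called in 24 of the 26 alternatives.

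Rpl12 (ENSMUSG00000038900.17, chromosome 2, 32961559 to 32965345, + strand) rose with an overlap of 1 mouse. In FL mice the levels were 641, 678, 656, 660.2 and 724 FPKM and in KO mice 753, 811, 721, 726 and 788 FPKM. FL mouse 5 reached the lowest KO mouse, and the other 4 FL mice lay below all KO mice. On the log2 scale it changed by 0.18 (SE 0.05, limma adjusted p = 0.0281), called in 19 of 26 alternatives and lost without FL mouse 1, 3 or 4 or KO mouse 1 or 5 (adjusted p of 0.0550 to 0.0672 from limma). Lrsam1, which overlaps Rpl12 on the other strand, was at 8.17 ± 1.90 in FL and 9.20 ± 1.46 FPKM in KO (n = 5, SD; limma adjusted p = 0.437).

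Rplp2 (ENSMUSG00000025508.13, chromosome 7, 141447370 to 141451585, + strand), the partner of Rplp1, had no such difference. Across FL mice values were 973, 1087, 1077, 1199 and 1098 FPKM and across KO mice 1029, 1208, 1040.3, 995 and 1075 FPKM. The groups overlapped throughout, with a log2 fold change of −0.02 and a 95% interval from −0.17 to 0.13 (limma adjusted p = 0.836). Its sign changed in 7 of 26 alternatives.

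**Figure D3:**
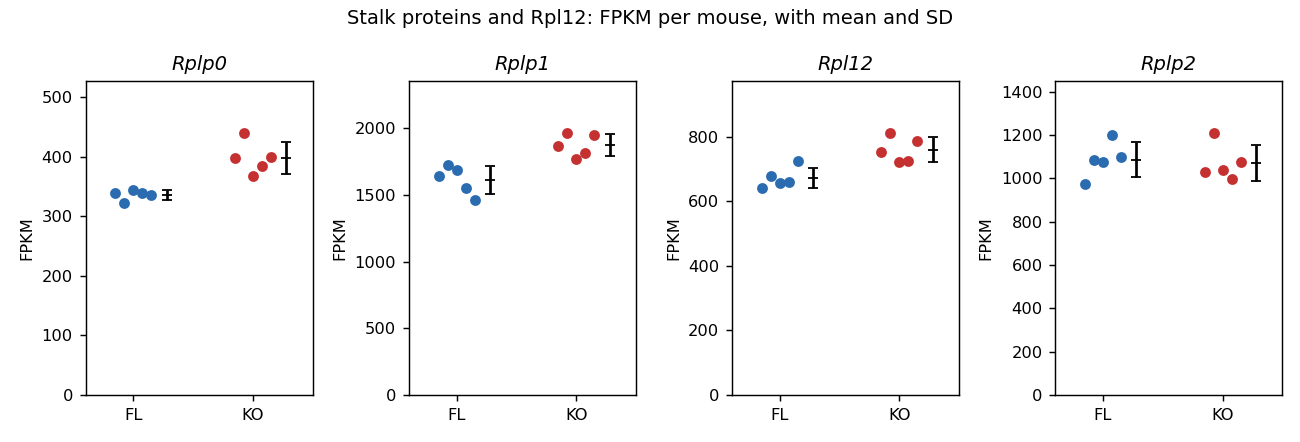
FPKM of Rplp0, Rplp1, Rpl12 and Rplp2 in each mouse (points), with the mean and SD (bars), FL in blue and KO in red, n = 5 each, axes from 0. The KO points of Rplp0 and Rplp1 lie above all FL points, those of Rpl12 overlap with 1 FL mouse, and those of Rplp2 overlap throughout.

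Because Rplp2 is measured in the same libraries, ratios to it within a mouse do not depend on the scale of the library. In all, 7 ratios were computed after the values had been seen, 3 to Rplp2 and 4 of a paralogue to its canonical partner. Where the numerator was itself called higher, the ratio was chosen for its difference and is given as a description with no test. Rplp0 over Rplp2 was 0.311 ± 0.0251 in FL and 0.372 ± 0.0143 in KO, without overlap (SD, n = 5). Rpl12 over Rplp2 was 0.621 ± 0.0448 and 0.712 ± 0.0280, also without overlap, and Rplp1 over Rplp2 was 1.49 ± 0.171 and 1.75 ± 0.0899, with overlap (SD, n = 5).

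The 6 members lower in KO were all of the large subunit, and Rpl28 was the steadiest of them. Their windows are printed as above, for the steadiest fall and for the fall of greatest size.
Rpl28, chr7:4792905-4792984, + strand: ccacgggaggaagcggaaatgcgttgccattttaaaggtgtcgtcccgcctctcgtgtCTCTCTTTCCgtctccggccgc
Rpl13, chr8:123102290-123102369, + strand: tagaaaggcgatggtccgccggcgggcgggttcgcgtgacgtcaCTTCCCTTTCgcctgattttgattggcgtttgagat
In the window of Rpl28 the run of C and T spans the start, and in that of Rpl13 it ends before it.

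Rpl28 (eL28; ENSMUSG00000030432.12, chromosome 7, 4792874 to 4795066, + strand) was lower in every KO mouse. The 5 FL mice had 421, 436, 431, 467 and 444 FPKM and the 5 KO mice 379.5, 419, 359, 349 and 389 FPKM. KO mouse 2 came within a few FPKM of the lowest FL mouse. Its log2 fold change was −0.22 (SE 0.06, limma adjusted p = 0.0181), and the call held whichever mouse was left out (adjusted p of 0.00525 to 0.0475 from limma) but, among the rescalings, not after that to the same sum (0.0564) or by the upper quartile (0.0555).

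Rpl13 (eL13; ENSMUSG00000000740.11, chromosome 8, 123102350 to 123105244, + strand) had the largest fall in size. FL values were 289.6, 285, 302, 285 and 302 FPKM and KO values 226, 281, 213, 222 and 284 FPKM. KO mice 2 and 5 lay just under the FL mice and the other 3 well below. The change was −0.27 (SE 0.08, limma adjusted p = 0.0403), and it was lost without any 1 of the FL mice or KO mouse 1, 3 or 4 (0.0602 to 0.0956). Gm20388, a transcript that overlaps Rpl13 on the same strand, also fell, from 33.2 ± 1.94 to 29.3 ± 1.27 FPKM (SD, n = 5; limma adjusted p = 0.0304), and reads of the pair cannot be told apart where they overlap.

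Rpl13a (uL13; ENSMUSG00000074129.12, chromosome 7), a host of 4 small nucleolar RNAs in its introns, fell from 718 ± 38.8 to 635 ± 31.7 FPKM (SD, n = 5). By mouse, FL stood at 689, 684, 697, 753 and 766 FPKM and KO mice at 630.4, 683, 629, 594 and 640.1 FPKM. All KO mice lay below all FL mice, with KO mouse 2 at the edge. It changed by −0.18 (SE 0.05, limma adjusted p = 0.0322).

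Rpl15 (eL15; ENSMUSG00000012405.15, chromosome 14), one of the genes mutated in Diamond-Blackfan anaemia, fell from 168 ± 12.7 to 145 ± 7.81 FPKM (SD, n = 5). Levels in FL mice were 163, 148, 174, 181 and 174 FPKM and in KO mice 143, 156, 142, 136 and 149.5 FPKM. FL mouse 2 lay among the KO mice and the other 4 above them. This gave a log2 fold change of −0.21 (SE 0.06, limma adjusted p = 0.0306). Nkiras1, on the other strand at this locus, was at 23.2 ± 1.15 in FL and 23.5 ± 1.73 FPKM in KO (n = 5, SD).

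Rpl7a (eL8; ENSMUSG00000062647.16, chromosome 2) fell from 553 ± 11.1 to 504 ± 14.8 FPKM (SD, n = 5). Individual FL mice were at 556, 545, 555, 539 and 568 FPKM and KO mice at 497, 526, 493, 492 and 511 FPKM. The groups did not overlap, and the log2 fold change was −0.13 (SE 0.04, limma adjusted p = 0.0288). Rpl7a was not called under any rescaling, and its change shrank to −0.08 with the median ratio and −0.04 with quantiles (limma adjusted p of 0.198 and 0.528).

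Rpl11 (uL5; ENSMUSG00000059291.15, chromosome 4) binds 5S ribosomal RNA together with Rpl5 (uL18), and that particle can inhibit Mdm2, the negative regulator of p53. FL islets were at 957, 932, 952, 992 and 1025 FPKM and KO mice at 870.2, 932, 866, 855 and 894 FPKM. The highest KO mouse and the lowest FL mouse were level at 932 FPKM, the KO mouse being lower in the next digits. The log2 fold change of Rpl11 was −0.14 (SE 0.04, limma adjusted p = 0.0454). Rpl5 was at 480.2 ± 35.4 in FL and 469.8 ± 15.3 FPKM in KO (n = 5, SD), and its log2 fold change was −0.03 with a 95% interval from −0.15 to 0.09 (limma adjusted p = 0.738).

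The last 4 of these falls were less steady than that of Rpl28. Of the 10 fits with 1 mouse left out, Rpl13a lost its call in 7 (FL mice 3, 4 and 5 and KO mice 1, 3, 4 and 5), Rpl15 in 6 (FL mice 3, 4 and 5 and KO mice 1, 3 and 4), Rpl7a in 6 (FL mice 1, 3 and 5 and KO mice 1, 3 and 4) and Rpl11 in 8 (every mouse but FL mouse 2 and KO mouse 2). Their adjusted p then ran from 0.0510 to 0.0818 for Rpl13a, 0.0587 to 0.0762 for Rpl15, 0.0572 to 0.0735 for Rpl7a and 0.0629 to 0.110 for Rpl11. Under the rescalings, Rpl11 was never called and went to −0.08 with the median ratio and −0.06 with quantiles (limma adjusted p of 0.206 and 0.374). Rpl13a went to −0.11 and Rpl15 to −0.14 with the upper quartile (0.106 and 0.0829). Rpl13a was still called with quantiles (−0.17, limma adjusted p = 0.0328), and both were after rescaling to the members (limma adjusted p of 0.0217 and 0.0319). Over all 26 alternatives, Rpl28 was called lower in 23, Rpl15 in 14, Rpl13a in 13, Rpl7a in 12, Rpl13 in 11 and Rpl11 in 7, and none of the 10 called members changed sign in any of them. Rpl36a, the remaining member whose groups did not overlap, fell short of the threshold, at 359 ± 17.2 in FL and 328 ± 9.61 FPKM in KO (n = 5, SD; limma adjusted p = 0.0653); it is named here after its values were seen.

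**Figure D4:**
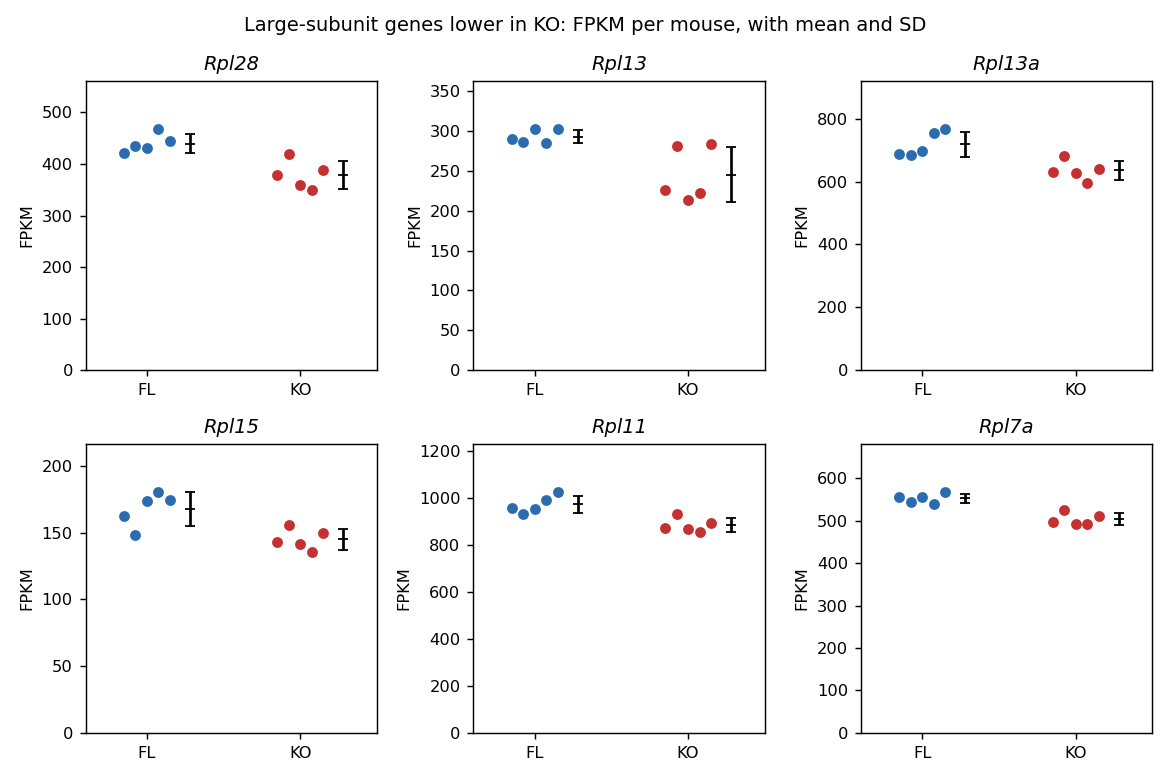
FPKM of the 6 large-subunit genes called lower in KO, in each mouse (points) with the mean and SD (bars), FL in blue and KO in red, n = 5 each, axes from 0. The groups do not overlap except in Rpl15, and KO mouse 2, the second red point in each panel, is the highest KO mouse in all but Rpl13.

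Of the small subunit, the gene that passed was a paralogue. Rps27l (ENSMUSG00000036781.13, chromosome 9, 66946086 to 66949516, + strand) encodes a near copy of eS27 and is a known target of p53, and 2 starts are annotated for it. The upstream one, printed as above, carries a short run of C and T just inside the transcript, and the downstream one, at 66946413, holds no such run.
Rps27l, chr9:66946026-66946105, + strand: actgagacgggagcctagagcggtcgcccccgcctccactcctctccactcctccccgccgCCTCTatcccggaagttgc
The FL mice stood at 229, 187, 197, 231 and 191 FPKM and KO mice at 255, 231, 255, 235 and 264 FPKM. FL mouse 4 met the lowest KO mouse, KO mouse 2, and the other 4 FL mice lay below all KO mice. Rps27l rose from 207 ± 21.3 to 248 ± 14.1 FPKM (SD, n = 5), and its log2 fold change was 0.26 (SE 0.07, limma adjusted p = 0.0224). It was called in 20 of 26 alternatives, and lost without FL mouse 2, 3 or 5 or KO mouse 1 or 5 (0.0504 to 0.0562).

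Rps27, its canonical partner, was at 1939 ± 66.5 in FL and 1784 ± 159.5 FPKM in KO (n = 5, SD; log2 fold change −0.12, limma adjusted p = 0.179). The ratio of Rps27l to Rps27 was 0.120, 0.0952, 0.107, 0.115 and 0.0969 in FL mice and 0.143, 0.114, 0.141, 0.139 and 0.163 in KO mice. The means were 0.107 ± 0.0109 and 0.140 ± 0.0177 (SD, n = 5), with KO mouse 2 inside the FL range and the other 4 KO mice above it. Rps27rt, a retrocopy of Rps27, was uneven between mice, at 33.2 ± 12.6 in FL and 25.7 ± 15.8 FPKM in KO (n = 5, SD).

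The other paralogue pairs gave no difference past the threshold by exact permutation (two-sided, adjusted over the 7 ratios, smallest possible p 0.00794). Rpl22l1 over Rpl22 was 0.619 ± 0.0367 in FL and 0.665 ± 0.0496 in KO (SD, n = 5; exact permutation p = 0.135, adjusted 0.189). Rpl7l1 over Rpl7 was 0.0487 ± 0.00213 and 0.0466 ± 0.00424 (n = 5; exact permutation p = 0.429, adjusted 0.429). Rps4l over Rps4x was 0.130 ± 0.0224 and 0.119 ± 0.0128 (n = 5; exact permutation p = 0.373, adjusted 0.429). Rpl22l1 was the paralogue nearest to its partner in FL islets, at 238 ± 22.9 FPKM beside 383 ± 16.1 FPKM for Rpl22 (SD, n = 5).

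**Figure D5:**
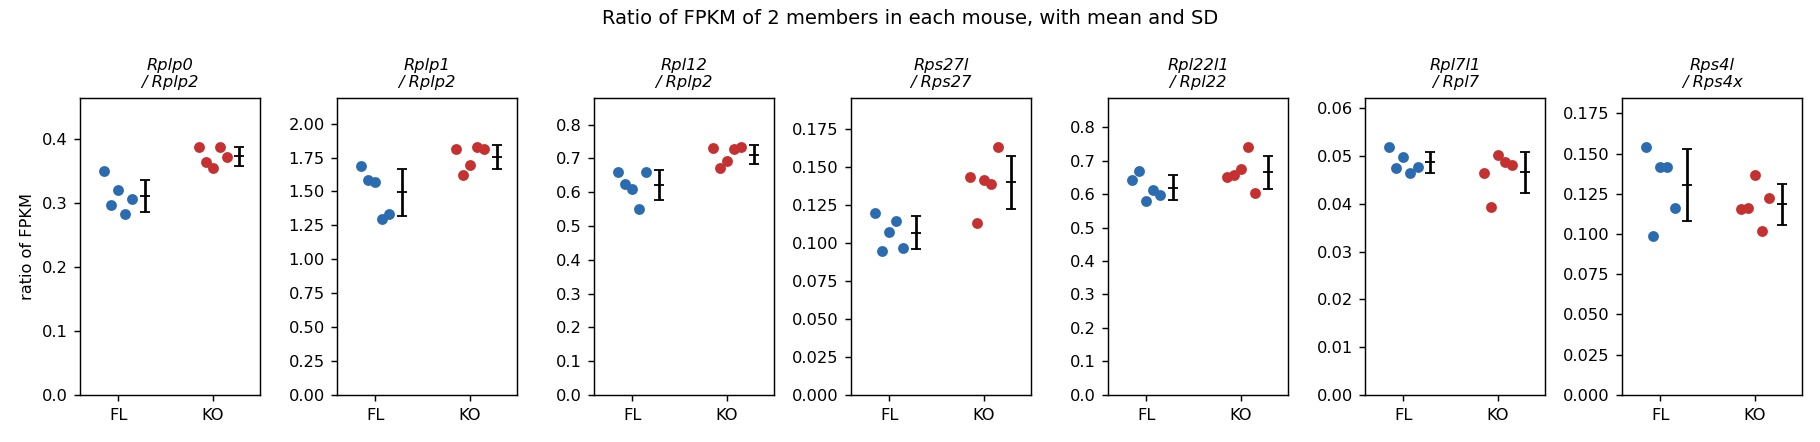
Ratio of FPKM of 2 members in each mouse (points) with the mean and SD (bars), FL in blue and KO in red, n = 5 each, axes from 0. The KO points of Rplp0 and Rpl12 over Rplp2 lie above all FL points, those of Rplp1 over Rplp2 and Rps27l over Rps27 are shifted up with overlap, and the other 3 ratios overlap.

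Further small-subunit members did not pass the test on the deposited scale. Rps6, the ribosomal protein phosphorylated by S6 kinase, was at 393 ± 9.62 in FL and 380.1 ± 33.0 FPKM in KO (n = 5, SD; log2 fold change −0.05, 95% interval −0.18 to 0.08, limma adjusted p = 0.556). Rps27a, made as a fusion with ubiquitin, was at 717 ± 49.8 and 775 ± 37.2 FPKM (SD, n = 5; log2 fold change 0.11, limma adjusted p = 0.182). Rpsa (uS2) was at 257 ± 10.6 and 261 ± 17.9 FPKM (SD, n = 5; log2 fold change 0.02, limma adjusted p = 0.819). Rps29 was at 1202 ± 59.6 in FL and 1353 ± 130.2 FPKM in KO, and Rps12, named after its values were seen, at 1016 ± 79.8 and 1130.3 ± 50.2 FPKM (SD, n = 5; adjusted p of 0.0986 and 0.0816 from limma). Rescaling by the median ratio, the upper quartile or quantiles brought Rps12, Rps21 and Rps29 past the threshold as higher in KO. Rps27a was also called higher after median ratio and upper quartile rescaling (limma adjusted p of 0.0395 and 0.0357).

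By position on the ribosome, members of the exit tunnel (8 tested), of the neighbourhood of the peptidyl transferase centre (3) and of the head of the small subunit (14) gave 0 calls with limma, and of the 18 genes mutated in Diamond-Blackfan anaemia Rpl15 and Rpl11 were lower. Without adjustment, 1, 1 and 3 members of the first 3 lists had a p under 0.05 (Rpl31; Rpl8; Rps12, Rps16 and Rps29). Among the alternative settings, at most 3 members of the head were called together, from Rps12, Rps16, Rps27a and Rps29. Rpl8 of the peptidyl transferase list was called in some, and no exit tunnel member in any. The medians of the 4 lists were −0.05, 0.07, 0.01 and −0.03 on the log2 scale. They are short lists, and 25.5% of all tested genes were called.

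Members varied together from mouse to mouse. With the group mean removed, the median correlation between 2 members over the 10 mice was 0.35, beside 0.24 for the 78 tested mitochondrial ribosomal proteins, values that share the same libraries and any difference in their scale. KO mouse 2 had the highest KO value in 59 of the 81 members. Rps2 (uS5), named after its values were seen, had the widest spread in KO, with mice at 496, 329, 509, 247 and 314 FPKM, a coefficient of variation of 30.9% against 12.4% in FL. Among 7315 other genes averaging 10 FPKM or more in each group, those whose levels were among the most like the mean of the members within groups were Mrto4 (Pearson r = 0.96 over 10 mice), Tmem29 (0.95), Imp3 (0.94) and Mtus1 (0.93). Against the average library, the log2 mean of the members was 0.114 in KO mouse 2 and −0.0634 to 0.0412 in the others. The r values thus lean on KO mouse 2, and they were not computed without it.

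The annotated start of the transcript is a feature the choice of members did not use. Of the members, 63 matched the RefSeq promoter table, with 75 starts among its 32851. A C at the annotated start followed by at least 4 C or T on the sense strand was found at 13 of the 75 starts (17.3%), against 2.51% of all starts. A run of a C and at least 4 C or T that touched the 10 bases on either side of the start was found at 45 (60%), against 35.8% of all. Annotated starts can be a few bases off the true ones, and a match is a description of the letters only.

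Of the ribosomal proteins that the name rule left out, 3 are described here, and 1 of them was lower in KO. Fau, whose product holds eS30, was at 369 ± 13.2 in FL and 353 ± 35.3 FPKM in KO and Rpl36al at 149 ± 9.25 and 147 ± 10.1 FPKM, neither past the threshold (SD, n = 5). Gnb2l1, the scaffold RACK1 on the small subunit, fell from 1207 ± 36.2 to 1084 ± 61.7 FPKM (SD, n = 5; log2 fold change −0.16, limma adjusted p = 0.0396), but was called in only 9 of 26 alternatives, with changes down to −0.09 in size. Of 22 other mRNAs with a TOP motif, 1 was lower and 2 higher (median −0.06). Eif3k, a subunit of initiation factor eIF3, fell (−0.19), and Hnrnpa1 (0.24) and Btf3, part of the nascent chain complex NAC, rose (0.18).

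In ribosome assembly, 3 of 57 tested biogenesis genes were lower and 2 higher (median −0.02). Gnl2, a nucleolar GTPase of the large-subunit precursor, fell from 33.7 ± 1.90 to 25.8 ± 2.05 FPKM, and Nop56, a core protein of box C/D particles, from 86.7 ± 7.22 to 72.5 ± 7.44 FPKM (SD, n = 5; adjusted p of 0.00149 and 0.0350 from limma). Gnl2 was called in all 26 alternatives and Nop56 in only 13. Mrto4, which holds the place of Rplp0 on the precursor until the stalk is built, rose from 21.04 ± 0.982 to 25.04 ± 2.54 FPKM (SD, n = 5; log2 fold change 0.24, limma adjusted p = 0.0231). Of 14 import and chaperone genes, Ipo5, an importin that carries ribosomal proteins, fell (−0.21, limma adjusted p = 0.0156) and the others did not pass.

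RNA polymerases I and III make ribosomal, 5S and transfer RNA. Of 29 tested genes for their subunits, initiation factors and regulators, 6 were lower and 1 higher (median −0.06). Of all tested genes, 16.5% were lower and 9.05% higher. The 6 were Polr3a, a subunit of polymerase III, the initiation factor genes Brf1, Brf2, Gtf3c1 and Taf1c, and Maf1, a repressor of polymerase III. Polr3a, Gtf3c1 and Taf1c were called in all 26 alternatives, Maf1 in 20, Brf2 in 17 and Brf1 in 10. Taf1c (−0.37) and Gtf3c1 (−0.32), subunits of the initiation factors SL1 and TFIIIC, had the largest falls, and Taf1d, another SL1 subunit, rose (0.30). Among 22 genes of mTORC1, LARP1 and MYC, 2 were lower and 2 higher. Rps6kb1, the S6 kinase that phosphorylates Rps6, rose from 13.3 ± 1.56 to 17.9 ± 1.13 FPKM (SD, n = 5; log2 fold change 0.41, limma adjusted p = 0.00306), without overlap. Deptor, an inhibitor of mTOR, rose from 32.9 ± 1.73 to 37.9 ± 2.92 FPKM (SD, n = 5; log2 fold change 0.19, limma adjusted p = 0.0379), with overlap. Tsc2, an inhibitor of mTORC1, fell from 19.2 ± 0.854 to 15.7 ± 1.56 FPKM, and Eif4e, the cap-binding protein, from 237 ± 17.4 to 204 ± 15.1 FPKM (SD, n = 5; adjusted p of 0.0111 and 0.0403 from limma).

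Of 36 initiation and elongation factors, 3 were lower and 2 higher (median −0.05). The eIF4F subunits Eif4g3 (0.28) and Eif4a1 (0.20) rose, both called in all 26 alternatives, and Eif4e fell (−0.21), called in 11 of 26 with changes down to −0.12 in size. Of 78 mitochondrial ribosomal proteins, which form a separate ribosome, 3 were lower and 2 higher (median −0.05). Among these Mrpl3 (−0.27) and Mrps22 (−0.24) fell and Mrpl18 (0.26) rose. Each of these lists had a share of calls at or under the 25.5% of all tested genes.

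Near-identical copies and overlapping genes bear on the counts. The 270 named ribosomal protein pseudogenes, 167 of them above 0, summed to only 81.5 to 135 FPKM in FL and 78.0 to 163 FPKM in KO, beside the 46143 or more of the members, so little of the signal was assigned to them. Rplp0-ps1, the retrocopy of Rplp0, was at 2.14 ± 0.261 in FL and 2.65 ± 0.355 FPKM in KO (n = 5, SD; limma adjusted p = 0.0921). Introns of 30 members hold 58 small nucleolar RNAs, 6 members overlap another gene on their own strand and 25 a gene on the other. The copies and overlapping genes named above were picked for their position or likeness, after the values were seen.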

How the data were processed

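Islet RNA of 5 FL and 5 KO mice is given as FPKM, which the authors deposited in 1 table with 1 column for each library. Per the labels, reads were aligned with STAR 2.5.2a to mm10 (GRCm38) and normalised with Cuffnorm 2.2.1. The library scaling it used, and whether strand was used in counting, are not given in the sources used here. FPKM do not hold read numbers, so depth is unknown and no counting error was computed.

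Groups were tested on log2(FPKM + 1) with limma 3.58.1 under R 4.3.3 (lmFit, then a trended eBayes) and no covariate, keeping genes that averaged at least 1 FPKM in either group. Benjamini-Hochberg adjustment ran over all 13065 genes, with calls at 0.05. The p-values measure the spread between mice. The code was first tested on simulated data. Positions come from GENCODE release M21, which all 88 members matched without version, 56 of them with it. The 7 ratios were compared by exact two-sided permutation tests over the 252 splits of the mice, given only for the 3 whose numerator was not called. Summaries used Python 3.11.15, pandas 2.3.3, numpy 2.4.6, scipy 1.17.1 and matplotlib 3.10.9.

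The members and gene lists were chosen with earlier results of these data known. Named with values are members of the stalk, 5S particle, ubiquitin fusion, S6 and paralogue lists and Rpsa, the 5 highest and 5 lowest in FL, called members, those at 0 in a group, and the 3 largest called changes of each further list. Alternatives were pseudocounts of 0.1 and 0.01, no filter or a minimum of 5 FPKM, 5 rescalings, 3 limma settings, the replicate number as a block, and each mouse left out. Calls were also counted at an adjusted p of 0.01 and with a 1.5-fold minimum, which are not among the 26 alternative settings. Added after seeing the values were rescaling to the members, a GC and length correction, omission of genes under 200 nt, and the ratios. Values of 2 genes that these rules name are not reported here.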

Additional observations from a re-analysis of the deposited data

Results flagged for a closer look

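In 68 groups of 5 mice, 1 mouse stood apart from the other 4 in 6, its gap to the nearest mouse exceeding 0.71 of the range of the group, where chance gives about 1 in 20, or 3.4. The groups share the same libraries and the sum holds the single members. They are thus not independent, and 6 was not tested against 3.4. KO mouse 2 was highest in the summed ribosomal protein FPKM, at 51675 FPKM beside 45686 to 47179 in the other KO mice. It was also highest in Rps6, at 439 FPKM (others 361 to 369), and in Rpsa, at 292 FPKM (others 249 to 259). KO mouse 5 was lowest in Rps15a, at 1461 FPKM (others 1699.7 to 1751), and in Rpl39, at 140.1 FPKM (others 159 to 161). That mouse also had the highest sum of acinar markers, at 21497 FPKM, and a link between these was not tested. FL mouse 4 was highest in Rps14, at 1203 FPKM (others 1123 to 1143).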

How the results depend on the processing

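No direction of a named gene that was called reversed, and Fitm2 was lower in all 26 alternatives. The counts moved more. Against 10 called members (6 lower, 4 higher, 9 large, 1 small), 4 were called without a filter (2 lower, 2 higher, 3 large), 5 after rescaling to the same sum (0 lower, 3 large, 2 small), 1 at an adjusted p of 0.01 (0 lower, 1 higher, 1 large, 0 small) and 0 with a 1.5-fold minimum, in either direction and subunit. Median ratio rescaling, with or without the members, gave 1 lower and 8 higher (4 large, 5 small), the upper quartile 0 and 8 (3 large, 5 small), and quantiles 2 and 9 (4 small). Rescaling to the members gave 7 higher (4 small), and the GC and length correction 11 lower (3 small in either direction). Leaving out 1 mouse at a time gave 3 to 14 called, 1 to 10 lower, 2 to 4 higher, 3 to 11 large and 0 to 3 small. The 30 calls among the further lists became 19 (same sum), 47 (sample weights), 48 (GC and length), 6 (adjusted p of 0.01), 0 (1.5-fold) and 19 to 40 without 1 mouse. The median log2 fold change of the members, −0.02, became 0.0356 (median ratio), 0.0360 (median ratio without members), 0.0439 (upper quartile) or 0.0455 (quantiles), and −0.04 to −0.01 without 1 mouse. The log2 ratio of the summed FPKM, close to 0 on the deposited scale, became 0.0588 after median ratio rescaling and −0.03 to 0.01 without 1 mouse; its upper quartile, quantile and member-free rescalings were not run. The cause of these shifts was not tested. Whether the replicate numbers of the titles pair the mice is unknown. Deviations of same-numbered mice correlated at −0.102 to 0.003, which cannot show whether they were littermates or were handled together. With the replicate block, 1 member was called (Rplp0, with 0 lower, 1 higher, 1 large, 0 small), with 16 calls in the further lists. FPKM limit what can be said of members near 0.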
